A study of Mus musculus with 3 samples.

Results

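A population of 2233 stromal cells of the mouse ovary was described, out of 31776 cells in the deposited single-cell RNA sequencing (scRNA-seq) table, or 7.03% of them. A cell was a member when it had at least 2 of the genes *Wnt4*, *Frem1* and *Col12a1* above 0 and at least 2 of the stromal genes *Dcn*, *Lum*, *Col1a1*, *Col3a1* and *Pdgfra* above 0. Cells with *Mfap5* or *Clec3b* at a natural log value of 1 or more, *Inha* or *Cyp17a1* at 2 or more, or any *Ptprc* or *Pecam1*, were left out. These 14 genes thus chose the members, and their levels are a description and not a finding.

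The study sequenced 3 libraries of ovary on the 10x Genomics platform, labelled hCG0h, hCG1h and hCG6h and taken 0, 1 or 6 h after injection of hCG, or human chorionic gonadotropin, which stands in for the surge of LH that sets off ovulation. By the paper the ovaries came from 21-day-old Kunming mice that had been given pregnant mare serum gonadotropin 48 h earlier, and which of the libraries this covers is not given in the sources used here. There is 1 library per time point, how many animals were pooled in it is not given, and no genotype or allele is named for them, nor any agent other than these 2 hormones. Cell barcodes end in 1, 2 or 3, and no label ties an ending to a library, so the endings are called barcode sets 1, 2 and 3 and carry no time point.

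The sets hold 10384, 9917 and 11475 cells, with a median of 6093, 6352 and 6524 unique molecular identifiers (UMIs, each standing for 1 captured transcript) per cell. Between 27 and 46 barcodes were shared by any pair of sets, and none of them was a member in both sets. A level is the summed UMIs of a gene per 10000 summed UMIs of a group of cells. Intervals are exact 95% intervals and cover counting error only, since cells of a library are not replicates, and no test between sets was possible.

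Stromal cells lie between the follicles, make the collagen and proteoglycan matrix of the ovary and give rise to the theca layer. WNT4 is a secreted ligand that ovarian development and female fertility depend on. FREM1 is a matrix protein of the Fraser complex, which anchors epithelia to the tissue beneath them, and collagen XII, the product of *Col12a1*, binds along the surface of collagen fibrils and bridges them to other matrix proteins. On GRCm38 (mm10) *Wnt4* spans 137277489 to 137299726 of chromosome 4, *Frem1* spans 82897920 to 83052339 of the same chromosome, and *Col12a1* spans 79598991 to 79718831 of chromosome 9.

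Members made up 6.00% of set 1 (623 cells, interval 5.55 to 6.47%), 5.91% of set 2 (586 cells, 5.45 to 6.39%) and 8.92% of set 3 (1024 cells, 8.41 to 9.46%). The share was thus higher in set 3 beyond counting error, while sets 1 and 2 overlapped. Median depth of the members was 4829, 6352 and 7486.5 UMIs in sets 1, 2 and 3, and its part in the share was not tested. With each cell thinned to 3000 UMIs, and 3042 shallower cells left out, 972 cells met the rule, 3.38% in all and 3.30, 2.94 and 3.83% of sets 1, 2 and 3. The interval for set 3 (3.48 to 4.22%) then lay above that for set 2 (2.60 to 3.31%) and overlapped that for set 1 (2.94 to 3.68%), and the difference between sets was not tested.

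The members did not carry the 3 markers alike in the 3 sets. In all, 1055 of them had *Wnt4* and *Col12a1*, 450 had all 3 markers, 449 had *Frem1* and *Col12a1* and 279 had *Wnt4* and *Frem1*. Cells with *Wnt4* and *Col12a1* alone were 24.4% of the members of set 1 and 21.8% of those of set 2, but 75.7% of those of set 3. Cells with *Frem1* and *Col12a1* were 31.6%, 36.9% and 3.52%. The level of *Frem1* in members was 1.93, 1.96 and 0.359 in sets 1, 2 and 3, while that of *Wnt4* was 2.29, 2.08 and 3.93 and that of *Col12a1* was 2.43, 2.55 and 2.47. *Frem1* was low in set 3 in other cells too, at 0.263, 0.275 and 0.0365 in the other stromal cells, so that in set 3 the rule chose cells mostly by *Wnt4* and *Col12a1*. The 3 markers together were highest in set 3 outside the members as well. They summed to 1.035, 1.124 and 1.821 in other stromal cells and to 0.746, 1.205 and 1.911 in all cells outside the population. *Wnt4* in members was 4.98, 4.98 and 3.17 times its level in other stromal cells. Of other stromal cells, 803 of 2012, 575 of 1309 and 1316 of 2312 had 1 marker above 0. How far this bears on the share of members in set 3 was not tested.

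**Figure D1:**
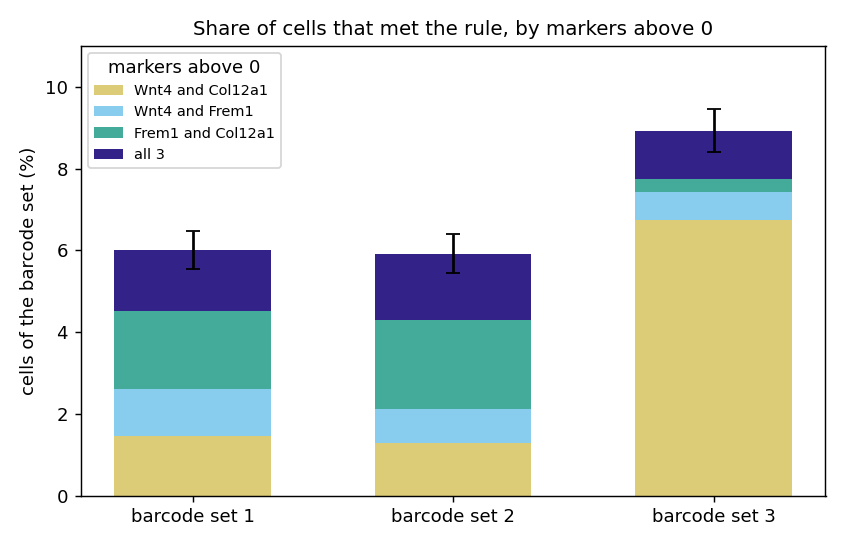
Share of the cells of each barcode set that met the rule (vertical axis, %), stacked by which of the 3 markers were above 0; error bars are exact 95% binomial intervals of the whole share. The bar of set 3 is the tallest, at 8.92%, and consists mostly of cells with *Wnt4* and *Col12a1* without *Frem1*.

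Of the members, 438 (19.6%) had exactly 2 markers, each seen as 1 UMI. Just outside the rule stood 2694 cells with 1 marker and 2939 with none that met all its other terms, with median depths of 6348.5 and 6093 UMIs against 6515 in members. Those 5633 cells are called other stromal cells below. *Mfap5* alone kept out 887 cells, *Inha* 190, *Clec3b* 174, *Pecam1* 48, *Cyp17a1* 18 and *Ptprc* 4. All 5 stromal genes were above 0 in 1127 members and only 2 of them in 73.

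Stromal genes that the rule did not read were looked at too. The rule chose cells by other stromal genes, so this is a description and no independent check. The 6 such markers summed to 55.97 in members, 43.5 in other stromal cells and 18.58 in all cells outside the population. In set 3 the sum was 43.78 in members and 41.79 in other stromal cells. *Col1a2*, a chain of type I collagen, stood at 15.02 in members and 4.67 in all cells outside the population, *Mgp*, a matrix inhibitor of calcification, at 22.8 and 8.17, *Nr2f2*, a transcription factor of mesenchyme, at 4.04 and 1.71, and *Tcf21*, another one, at 2.54 and 0.708. Markers of other cell types were summed without the genes that the rule sets or limits. The 7 myeloid markers summed to 0.171, the 6 lymphoid markers to 0.0510 with 3 of them at 0 UMIs, the 7 endothelial markers to 0.554, the 7 pericyte markers to 0.888, the 10 surface epithelium markers to 0.216, the 7 oocyte markers to 0.0324 and the 5 erythroid markers to 0.0617. The pericyte sum outside the population was 0.893, and the endothelial and myeloid sums there were 2.85 and 1.28. The 11 granulosa markers other than *Inha* summed to 4.68 in members, 3.88 in other stromal cells and 35.9 outside the population. By set they were at 7.31, 7.22 and 2.21 in members and 43.4, 51.5 and 14.5 outside. The 7 markers of theca and steroidogenic cells other than *Cyp17a1* summed to 15.02 in members, 26.9 in other stromal cells and 56.2 outside. The 8 smooth muscle markers went the other way, at 25.0 in members, 19.5 in other stromal cells and 14.7 outside, and 35.8% of members had 3 or more of them against 24.3% of other stromal cells. By set their sum was 18.53, 21.45 and 29.8 in members and 19.15, 19.32 and 19.82 in other stromal cells. The excess over other stromal cells was thus absent in set 1 and largest in set 3. Cells rich in *Inha* or *Cyp17a1* were kept out by the rule, so the granulosa and theca sums are not independent of it either. *Inha*, an inhibin subunit of granulosa cells, was above 0 but under its limit in 1220 members (54.6%). Free RNA and doublets can both bring in such UMIs, and their part in the levels below was not tested.

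Each set was clustered on its own without the 14 genes of the rule. In sets 1 and 2 most members fell together, with 414 of 623 (66.5%) in 1 of 22 clusters and 433 of 586 (73.9%) in 1 of 25, while in set 3 the fullest of 23 clusters held 408 of 1024 (39.8%). The fullest clusters took 17.0, 23.2 and 9.99% of the other stromal cells. Members were only 40.0, 34.9 and 34.0% of the cells of these clusters, so their leading genes describe whole clusters and not members alone. The cluster of set 1 was led by *Lrrc17*, *Fgf2*, *Sfrp1*, *Kcnk2* and *Islr*, that of set 2 by *Lrrc17*, *Tcf21*, *Ms4a4d*, *Sfrp1* and *Islr*, and that of set 3 by *Bdnf*, *Fibin*, *Wnt5a*, *Sfrp1* and *Tnc*. *Sfrp1* and *Ogn* were among the 10 leading genes of all 3 clusters. In set 3 a further 326 members (31.8%) lay in a cluster led by *Serpina3n*, *Alpl*, *Ifitm1* and *Vegfd*, and 158 (15.4%) in a cluster led by *Lgi2*, *Enpep*, *Thbd* and *Col15a1*, which also took 30.4 and 34.1% of the other stromal cells of that set. Most members thus lay in 1 cluster in sets 1 and 2 and in several clusters in set 3. Values for members of the fullest cluster alone are given below for a number of genes whose differences were larger, smaller or turned there. That subset was chosen after the data had been seen. In set 3 the choice of the fullest cluster depends on the resolution of the clustering, as given in the last section.

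**Figure D2:**
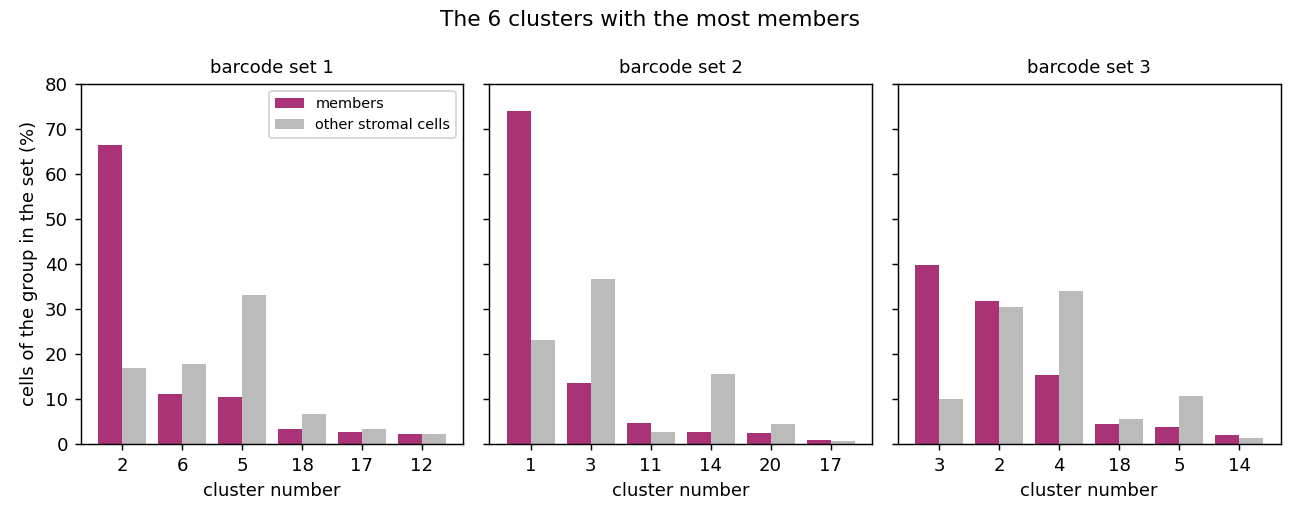
Percent of the members and of the other stromal cells of each barcode set (vertical axis) that fell in each of the 6 clusters with the most members (cluster numbers on the horizontal axis). Members gathered in 1 cluster in sets 1 and 2 (66.5 and 73.9%) and were spread over several in set 3, where the fullest held 39.8%.

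Members and other stromal cells were close in most of their transcriptome. Of 6174 genes with a mean level of at least 0.2, 22 were at least 2-fold higher in members in each of the 3 sets (0.356% of those compared) and 9 were at least 2-fold lower in each (0.146%), and the median ratio was 1.02. The 3 markers of the rule are among the 22. The rule was applied to the same cells, so these counts describe the population and are no test. With set 3 left out the counts were 51 and 31, with set 2 left out the lower count was 14, and against stromal cells with none of the 3 markers they were 46 and 24.

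The named genes of the first ranks included a secreted signal, a WNT inhibitor and surface proteins. *Bdnf*, the neurotrophin BDNF, was at 0.312, 0.639 and 1.19 in members of sets 1, 2 and 3 and at 0.116, 0.282 and 0.344 in other stromal cells, a ratio of 3.41 over the table (3.14 to 3.71). It was highest in set 3 in both kinds of cell. *Sfrp1*, a secreted inhibitor that binds WNT ligands, was at 2.61, 2.76 and 1.76 in members and 0.880, 0.903 and 0.776 in the others (ratio 2.63, 2.51 to 2.75). *Clec1a*, a C-type lectin receptor, was at 1.38, 1.80 and 0.0855 against 0.311, 0.516 and 0.0365 and was thus lowest in set 3 in both groups. *Tenm4*, a teneurin adhesion protein, was lowest in set 3 as well, at 2.76, 3.14 and 0.446 against 0.849, 1.05 and 0.155. *Kcnk2*, a mechanosensitive potassium channel, was at 1.17, 1.33 and 0.152 against 0.387, 0.432 and 0.0675.

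*Wt1*, the transcription factor of the early gonad and of its surface, was at 1.19, 1.36 and 0.757 in members and 0.327, 0.568 and 0.265 in other stromal cells (ratio 2.84, 2.65 to 3.05). It was 1 of 26 gonadal and mesenchymal transcription factors compared, and the others stayed under 2-fold in at least 1 set. The median ratio of the 26 was 1.14, and over all genes 0.356% were higher in each set. After thinning to 3000 UMIs, *Wt1* was seen in 24.0% of members and 9.27% of other stromal cells, *Sfrp1* in 40.6 and 17.1% and *Bdnf* in 16.5 and 6.68%. Without thinning *Wt1* was seen in 40.4 and 14.8% of them, *Sfrp1* in 56.0 and 26.1% and *Bdnf* in 28.5 and 10.2%.

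Several of the higher genes belong to the extracellular matrix. *Ogn*, the small proteoglycan osteoglycin, was at 11.6, 13.4 and 2.79 in members against 5.13, 5.49 and 1.31 (ratio 2.07, 2.02 to 2.12). *Lox*, the enzyme that crosslinks collagen and elastin, had a ratio of 2.54, *Thbs2*, a matricellular thrombospondin, one of 2.46, and *Adamts19*, a secreted metalloprotease, one of 2.52. Of 25 matrix glycoproteins and proteoglycans compared, 2 were higher in each set and none lower (0.356 and 0.146% over all genes). Their median ratio was 1.21. Of 12 genes of collagen crosslinking 1 was higher, with a median of 1.04. None of 5 fibrillar collagens outside the rule (median 1.33), 9 network and basement membrane collagens (0.860) or 9 laminins and basement membrane genes (0.954) passed in either direction. *Tnc*, tenascin C, had a ratio of 2.53 and *Fgf2*, a fibroblast growth factor, one of 2.41 over the table, both without passing the fold in every set. Other named genes were *Fam180a* (3.11), *Steap3*, a metalloreductase (2.63), *Stard10*, a lipid transfer protein (2.61), and *Galnt15*, an enzyme of O-glycosylation (2.59).

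Within the WNT pathway the members stood out by few genes other than *Wnt4*. *Wnt5a*, a ligand of the noncanonical branch, was at 1.00, 0.859 and 1.31 in members of sets 1, 2 and 3, 2.23-fold the level of other stromal cells over the table (2.09 to 2.37) but without passing in each set. None of 6 receptors and R-spondin genes passed (median 1.14), and 1 of 4 inhibitors did, which was *Sfrp1* (median 1.38). Of 7 transducers and targets 1 did, which was *Nkd1*, a feedback inhibitor (ratio 2.16, median 1.02). Over all genes 0.356% were higher in each set. *Frzb*, another secreted inhibitor, had a ratio of 1.61 and *Sfrp4* one of 0.684. *Fras1* and *Frem2*, partners of FREM1 in the Fraser complex, were at 0.0282 and 0.00240 in members, under the limit for comparison.

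Enzymes, some of them of lipid metabolism, were among the 9 lower genes. *Acsbg1*, an acyl-CoA synthetase, was at 1.34, 0.4999 and 0.679 in members and 3.93, 1.77 and 1.40 in other stromal cells (ratio 0.332, 0.313 to 0.352). *Gsta2*, a glutathione transferase, had a ratio of 0.254, *Fabp3*, a fatty acid binding protein, one of 0.373, *Vcam1*, an adhesion molecule, one of 0.335 and *Ebf1*, a transcription factor of mesenchymal progenitors, one of 0.338. *Mmd2* (0.305) and *Ifi203* (0.393) were further named genes. Among 10 steroidogenesis genes none passed in each set (0.356% higher and 0.146% lower over all genes), with a median of 0.727. *Cyp11a1*, which makes pregnenolone from cholesterol, had a ratio of 0.502 and *Hsd3b1*, which makes progesterone from it, one of 0.524.

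**Figure D3:**
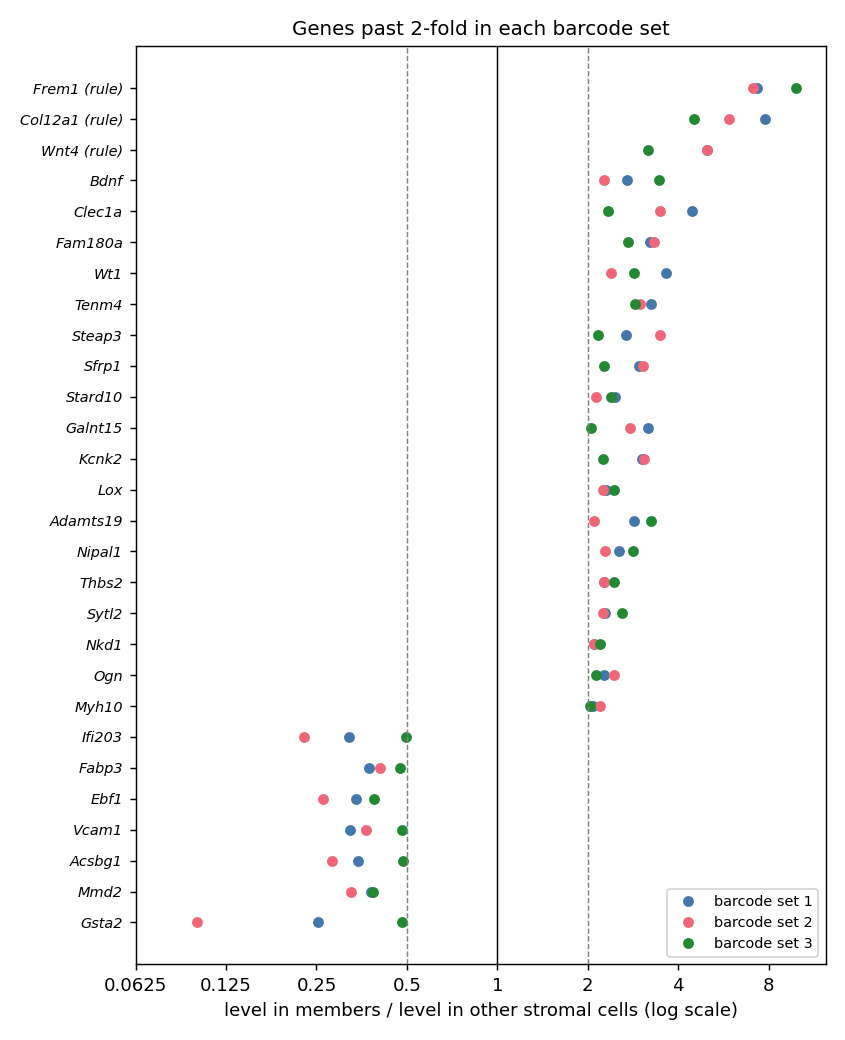
Ratio of the level in members to that in other stromal cells (horizontal axis, log scale) in barcode sets 1, 2 and 3 (points), for 28 genes that were at least 2-fold higher or lower in each set; dashed lines mark 2-fold. The markers of the rule lead, followed by *Bdnf* and *Clec1a*, and *Gsta2* in set 2 is the lowest point, at 0.100.

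The members of the fullest cluster of each set differed further from other stromal cells in the same direction. *Wt1* was then 4.80-fold, *Sfrp1* 3.79-fold, *Ogn* 3.38-fold, *Bdnf* 5.15-fold and *Clec1a* 6.00-fold higher, and *Acsbg1* was at 0.101 and *Vcam1* at 0.157 of the other level. With these members alone 63 genes were higher in each set and 92 lower. These genes also shaped the clusters, so the larger ratios are a description.

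Members were also set beside 2 other kinds of stromal cell, defined here by marker pairs. Against 429 fibroblasts with both *Mfap5* and *Clec3b*, 8 of 3117 genes were at least 2-fold higher in each set (0.257%) and 11 were lower (0.353%, 2 of them genes of the rule). None of the 3 markers of the rule was among the 8, nor was *Wt1*, *Sfrp1*, *Ogn* or *Tenm4*. In sets 1, 2 and 3 the 3 markers summed to 2.517, 2.936 and 5.027 in these fibroblasts. In members they summed to 6.641, 6.583 and 6.76, so the sums were closest in set 3. Over all members *Sfrp4*, a secreted WNT inhibitor, had a ratio of 8.57 (6.08 to 12.5), with 14.1, 45.1 and 2.52 within sets 1, 2 and 3. *Cyp11a1* had one of 5.59 and *Igfbp5*, which binds insulin-like growth factors, one of 4.05. *Star*, the carrier of cholesterol into mitochondria, had one of 3.44 and *Prlr*, the prolactin receptor, one of 2.40. In members of the fullest clusters these ratios over the table were 1.45, 0.940, 2.49, 1.18 and 0.604. Of the 8 higher genes 1 passed 2-fold in each set there. That gene was *Peg10*, an imprinted gene derived from a retrotransposon, with a ratio of 3.39 in all members and 4.25 in the fullest clusters. Of the 11 lower genes 7 passed there, the 2 of the rule among them. *Cd34*, a sialomucin of progenitor and adventitial cells, was lower in members at 0.997 against 3.08, as were *Cav1*, of caveolae, at 0.317 against 0.964 and *Mfap4*, of elastic fibres, at 3.08 against 7.51. In the fullest clusters the ratios were 0.373 for *Cd34*, 0.132 for *Cav1* and 0.520 for *Mfap4*, which no longer passed in each set.

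Against 574 stromal cells with both *Lamc3* and *Adcy7*, 24 of 3137 genes were higher in each set (0.765%) and 25 were lower (0.797%). These cells are part of the other stromal cells and have fewer than 2 of the 3 markers, so this comparison overlaps the earlier one. The 3 markers among the 24 genes, and *Lamc3* and *Adcy7* among the 25, follow from the definitions. *Wt1* stood at 1.01 in members and 0.0712 in these cells, a ratio of 14.2 (10.4 to 19.9), between 15.8 and 18.2 within the 3 sets. *Frzb* (6.32-fold), *Lpl* (5.91-fold), lipoprotein lipase, *Rbp4* (5.73-fold), the carrier of retinol, *Sfrp1* (4.60-fold) and *Wnt5a* (3.32-fold) were higher too. Within sets 1, 2 and 3 the ratio was 3.30, 3.30 and 2.61 for *Rbp4* and 6.86, 8.475 and 2.29 for *Frzb*. Of the 574 cells 310 are in set 1 and 100 in set 3, against 623 and 1024 of the members. A ratio over the table can thus lie outside those within the sets. *Enpep*, a peptidase of angiotensins, was at 0.560 against 3.08, *Hhip*, a hedgehog-binding inhibitor, at 0.665 against 2.13, and *Thbd*, thrombomodulin, at 0.701 against 2.05. In the fullest clusters 14 of the 15 genes ranked highest, 3 of the rule among them, and all 15 ranked lowest, 2 of them *Lamc3* and *Adcy7*, passed in each set, and *Wt1* had a ratio of 23.95, *Enpep* one of 0.0654 and *Hhip* one of 0.0549. The median depth of these cells was 8509.5 UMIs, above that of the members, and that of the fibroblasts was 5652, below it. The part of depth in these comparisons was not tested.

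The sets were then compared within the members. Since each set is read here as 1 group of cells of 1 barcode ending, the values describe those cells, and time after hCG and library cannot be told apart even where an ending could be placed. The 3 comparisons share their sets. Between sets 1 and 2 little passed 2-fold, with 32 of 3153 genes higher in set 2 (1.01%) and 38 lower (1.21%). Between sets 2 and 3, 316 of 3118 were higher in set 3 (10.1%) and 193 lower (6.19%), and between sets 1 and 3, 241 of 3216 were higher in set 3 (7.49%) and 186 lower (5.78%). Other stromal cells gave 2.61 and 1.93%, 7.35 and 4.17%, and 5.63 and 4.55%.

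The median ratio over genes of set 3 over set 2 was 1.12, a shift of 0.17 on the log2 scale. Relative to this median 215 genes were higher and 284 lower in set 3, which turns the majority around, and with the most abundant genes left out of the totals they were 327 and 317. For set 2 over set 1 the same scalings gave 41 higher and 32 lower genes, and 57 and 44. For set 3 over set 1 they gave 210 higher and 226 lower genes, and 272 and 303, so the majority turned under both. The split between higher and lower genes therefore rests on the scaling.

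Several genes known from responses to hormones and growth factors were highest in set 2. *Pde10a*, a phosphodiesterase of cyclic nucleotides, was at 0.408, 3.34 and 0.993 in members of sets 1, 2 and 3, 8.20-fold higher in set 2 than in set 1 (6.98 to 9.69). Its ratio within the fullest clusters was 4.11. The ratio in other stromal cells was 27.0, and outside the population *Pde10a* was at 0.187, 11.2 and 0.501. *Errfi1*, a feedback inhibitor of the EGF receptor, was at 0.786, 3.97 and 1.72, *Nab2*, a corepressor of EGR proteins, at 0.393, 1.82 and 0.797, and *Rgs2*, an inhibitor of G protein signalling, at 1.17, 4.21 and 3.13. *Cebpb*, a transcription factor that ovulation and luteinization depend on, was at 4.27, 11.9 and 3.41 in members and 3.42, 12.3 and 3.67 in other stromal cells. For all of these genes set 2 was the highest of the 3 sets.

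Matricellular genes were among them. *Ccn2*, connective tissue growth factor, was at 1.41, 6.43 and 0.507 in members, 4.57-fold higher in set 2 than in set 1 (4.17 to 5.01) and 0.0789 of set 2 in set 3. Its ratio of set 2 to set 1 was 7.92 within the fullest clusters. In other stromal cells it was at 1.35, 2.49 and 0.350, a ratio of set 2 to set 1 of 1.85. *Thbs1*, thrombospondin 1, was at 3.61, 8.44 and 2.97 in members and 1.48, 5.45 and 1.26 in the others. *Ms4a4d* (0.761, 1.58 and 0.542) and *Nnat* (1.154, 3.47 and 1.63) were also highest in set 2. Within the fullest clusters the ratio of set 2 to set 1 was 1.61 for *Ms4a4d*, and that of set 3 to set 2 was 0.60 for *Thbs1* and 0.80 for *Nnat*, all short of 2-fold.

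Among ovulatory response genes, 6 of 9 compared were higher in set 2 than in set 1 (1.01% over all genes). Their median ratio was 3.58. From set 2 to set 3, 5 of 8 were lower (6.19% over all genes), with a median of 0.458. *Areg*, an EGF-like factor that relays the LH signal, was at 0.00976, 1.82 and 0.152 in members, and *Ereg*, another one, at 0.0878, 1.69 and 0.817. *Tnfaip6*, which stabilizes the hyaluronan matrix of the cumulus, was at 0.0756, 1.19 and 0.371. In set 1 *Areg*, *Ereg* and *Tnfaip6* were far under the mean level of 0.5 needed for comparison. They were compared with set 1 only through set 2, so their calls as higher there follow from the filter. The count of 6 and the median of 3.58 include them. Of the 18 genes listed 9 were compared. Within the fullest clusters *Ereg* was at 0.0845, 0.830 and 0.782 and *Tnfaip6* at 0.0422, 0.607 and 0.384, so neither was 2-fold lower in set 3 than in set 2. Outside the population *Areg* was at 0.0255, 8.04 and 0.140 and *Ereg* at 0.0743, 7.57 and 0.689, so members held less of both in set 2 than the rest of the table, and how far free RNA gives their level was not tested. Of 22 immediate early genes 1 was at least 2-fold higher in set 2 (*Egr3*, at 0.251 and 1.09) and none lower, with a median of 0.927. From set 2 to set 3, 7 of 20 of them were lower, among them *Btg2* (22.3 and 6.82), *Nr4a1* (3.19 and 1.17) and *Egr1* (23.2 and 11.5), with a median of 0.966.

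Genes of steroidogenesis and lipid synthesis were among those lower in set 2 than in set 1. Of 6 steroidogenesis genes compared 3 were lower and none higher (1.21 and 1.01% over all genes), with a median of 0.566. *Cyp11a1* was at 9.39, 3.06 and 2.25 in members of sets 1, 2 and 3, *Hsd3b1* at 6.83, 2.69 and 0.824, *Idh1*, which supplies NADPH, at 4.35, 1.31 and 1.91, and *Hmgcs1*, of cholesterol synthesis, at 2.39, 0.864 and 2.51. In the rest of the table *Cyp11a1* was at 21.5, 10.8 and 12.2 and *Hsd3b1* at 24.4, 15.9 and 7.53, each above the members. Levels were lower in members of the fullest clusters. There *Cyp11a1* was at 1.11, 0.585 and 0.555 and *Hsd3b1* at 1.55, 1.19 and 0.423, and the summed theca and steroidogenic markers other than *Cyp17a1* were at 4.76, 5.80 and 6.59, against 39.5, 30.4 and 13.9 in the remaining members. *Star* went the other way there, at 0.0950, 0.391 and 0.817, as did *Scarb1*, the receptor for high-density lipoprotein, at 0.185, 0.372 and 0.356. Their ratios of set 2 to set 1 were 4.11 for *Star* and 2.02 for *Scarb1*, against 1.74 and 0.741 in all members. *Idh1* was at 1.51, 0.864 and 1.23 and *Hmgcs1* at 0.913, 0.659 and 2.05, both short of 2-fold between sets 1 and 2. *Cyp11a1*, with a ratio of 0.527, and *Hsd3b1* were short of it there too. Of the 38 genes lower in set 2, 10 (26.3%) were also past 2-fold within the fullest clusters, and of the 32 higher genes 22 (68.8%) were. *S100a6*, a calcium-binding protein, was at 9.87 and 4.22 in sets 1 and 2 over all members and at 0.602 and 1.11 in the fullest clusters. Its median over single members was 0 in both sets, with 90th percentiles of 4.09 and 3.99.

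**Figure D4:**
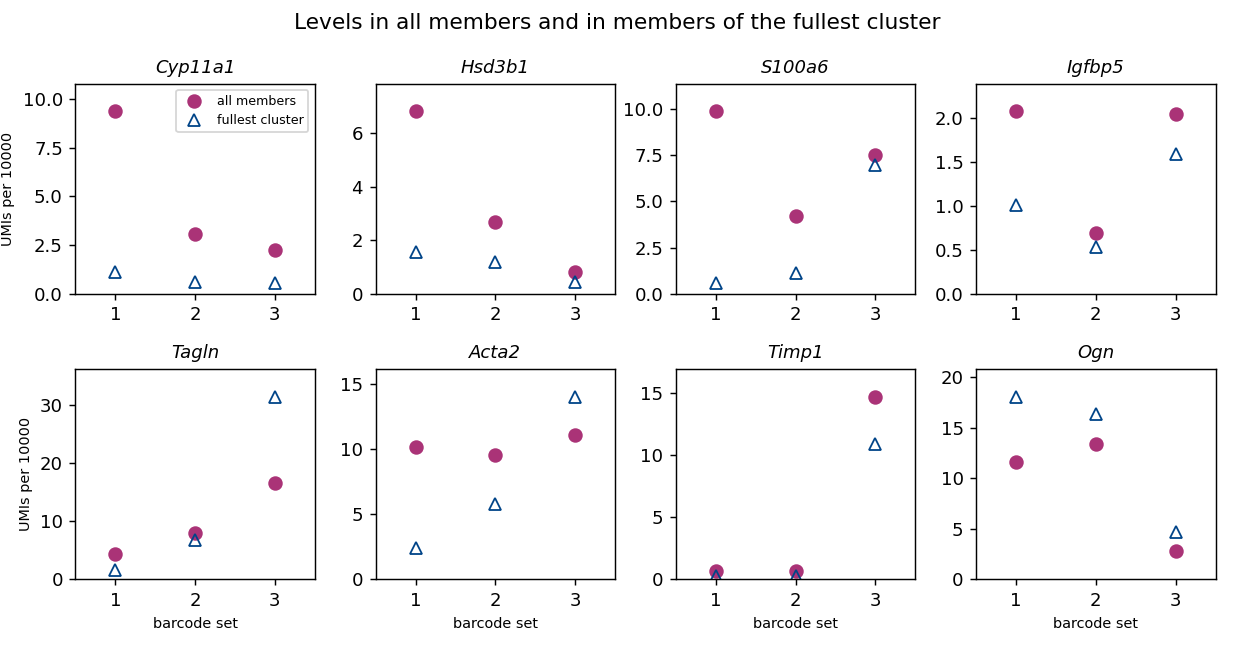
Levels (vertical axes, UMIs per 10000) of 8 genes in barcode sets 1, 2 and 3 (horizontal axes) in all members (circles) and in members of the cluster that held the most of them in each set (triangles). *Cyp11a1*, *Hsd3b1* and *S100a6* of set 1 are far lower in the fullest cluster, while *Tagln* and *Acta2* run from lowest in set 1 to highest in set 3 there.

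The genes highest in set 3 included a protease inhibitor, a metallothionein and a WNT inhibitor. *Timp1*, the tissue inhibitor of metalloproteinases, was at 0.681, 0.646 and 14.7 in members, 22.7-fold higher in set 3 than in set 2 (20.1 to 25.8). In other stromal cells it was at 0.623, 0.995 and 15.5, and outside the population at 0.521, 0.596 and 8.01, so set 3 was the highest in all 3 groups of cells. Its ratio of set 3 to set 2 was 39.5 within the fullest clusters. After thinning it was seen in 11.5, 10.95 and 82.8% of members of sets 1, 2 and 3, and over the table in 45.3% of members and 44.1% of other stromal cells (53.4 and 53.3% without thinning). *Alpl*, tissue-nonspecific alkaline phosphatase, was at 0.127, 0.163 and 2.37, *Nxn*, nucleoredoxin, a redox regulator of WNT signalling, at 0.700, 0.579 and 4.74, and *Mt2*, a metallothionein, at 1.01, 2.07 and 12.03. *Frzb* was at 0.471, 0.438 and 2.49 in members and 0.285, 0.282 and 1.85 in the others.

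Some genes of retinoid transport, cholesterol synthesis and growth factor signalling were also highest in set 3. *Rbp4* was at 0.249, 0.436 and 2.12 in members and 0.102, 0.232 and 1.26 in other stromal cells, *Msmo1*, of cholesterol synthesis, at 0.759, 0.356 and 1.79, and *Vegfd*, a lymphatic growth factor, at 0.429, 0.351 and 1.70. Of 13 growth factors and receptors compared, 5 were higher in set 3 than in set 2 and none lower (10.1 and 6.19% over all genes). The 5 were *Igfbp5*, *Egfr*, *Igf1*, *Igfbp4* and *Cxcl12*. *Igfbp5* was not highest in set 3, at 2.08, 0.693 and 2.05 in sets 1, 2 and 3. *Igfbp4*, which binds insulin-like growth factors, was at 3.18, 2.95 and 8.43, and *Egfr*, the receptor of AREG and EREG, at 0.678, 0.614 and 1.78. Of 6 genes of glycolysis and hypoxia 3 were higher (10.1% over all genes), with a median of 1.95, and *Ldha*, lactate dehydrogenase A, was at 1.97, 2.60 and 7.70. Members of the fullest clusters had a ratio of set 3 to set 2 of 24.0 for *Alpl*, 8.19 for *Vegfd* and 5.49 for *Igf1*, a growth factor, against 14.5, 4.84 and 2.88 in all members. *Nts*, the neuropeptide neurotensin, had the largest ratio of set 3 to set 2 among the named genes, at 0.00244, 0.0594 and 2.40 in members, but it was at 15.6 outside the population in set 3 and at 2.42 in other stromal cells, and how far free RNA gives its level in members was not tested.

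Matrix genes were among those lower in set 3. Of 22 matrix glycoproteins and proteoglycans 9 were at least 2-fold lower in set 3 than in set 2 and 2 were higher (6.19 and 10.1% over all genes). Their median was 0.603 against 1.12 over all genes. *Ogn* was 0.209 of set 2 (0.199 to 0.219). *Lum*, lumican, and *Dcn*, decorin, are genes of the rule and were at 8.35, 8.22 and 2.34 and at 17.0, 16.7 and 6.37. *Aspn*, asporin, was at 1.07, 1.13 and 0.191, and *Sparcl1*, an adhesion-modulating glycoprotein, at 7.06, 8.68 and 3.62. Within the fullest clusters *Aspn* was at 0.9502, 1.02 and 0.265 and *Sparcl1* at 10.3, 9.94 and 5.40, the latter short of 2-fold. *Fbln1*, fibulin 1, at 0.583, 0.708 and 1.56, and *Vcan*, versican, at 0.698, 0.747 and 3.04, were the higher ones, and *Vcan* was at 2.17, 4.86 and 15.3 outside the population. *Itih5*, a hyaluronan-binding protein, was at 13.0, 13.8 and 2.39 in members and 6.11, 6.69 and 1.21 in the others.

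Collagens went in different directions between sets 2 and 3, where 6.19% of all genes compared were lower in set 3 and 10.1% higher. *Col1a2* was at 20.1, 22.9 and 8.87 and *Col11a1* at 1.147, 1.27 and 0.601, the 2 of 6 fibrillar collagens past the fold, of which *Col11a1* had a ratio of 0.727 in the fullest clusters, while *Col3a1*, a gene of the rule, was at 15.6, 15.04 and 15.9. *Col4a1* and *Col4a2*, the common chains of basement membranes, were higher in set 3, at 7.30, 4.55 and 10.6 and at 4.12, 2.23 and 5.99. *Col4a4* (1.80, 2.72 and 0.828) and *Col6a3* (2.66, 2.62 and 0.810) were lower. *Loxl1*, which crosslinks elastin, at 0.808, 0.960 and 2.04, and *Plod2*, a lysyl hydroxylase of collagen, at 2.77, 2.27 and 5.26, were the 2 of 7 crosslinking genes that passed, both higher.

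Transcription factors of the gonad were among the lower genes as well, 4 of 18 in set 3 against set 2, with 2 higher (6.19 and 10.1% over all genes). *Foxl2*, which maintains ovarian identity and is best known from granulosa cells, was at 3.04, 2.63 and 0.720 in members, above other stromal cells in each set (1.72, 1.02 and 0.508) and above the rest of the table in sets 1 and 2 (2.01, 1.00 and 0.746). *Inha*, a gene of granulosa cells that the rule limits, was at 1.64, 1.90 and 0.933 in members against 28.5, 31.4 and 19.2 in the rest. *Tcf21* was at 3.01, 4.75 and 1.26 in members and 2.08, 1.53 and 1.09 in the others, highest in set 2 in members and in set 1 in the others. *Zeb1*, a repressor of epithelial genes, was at 1.74, 2.25 and 0.933. *Osr2*, a zinc finger factor of mesenchyme, was at 1.21, 0.389 and 0.910, lowest in set 2, and at 0.850, 0.402 and 0.426 in the fullest clusters. *Gas6*, a ligand of TAM receptors, was at 6.73, 5.22 and 0.999 in members and 11.3, 5.55 and 0.687 in the others.

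**Figure D5:**
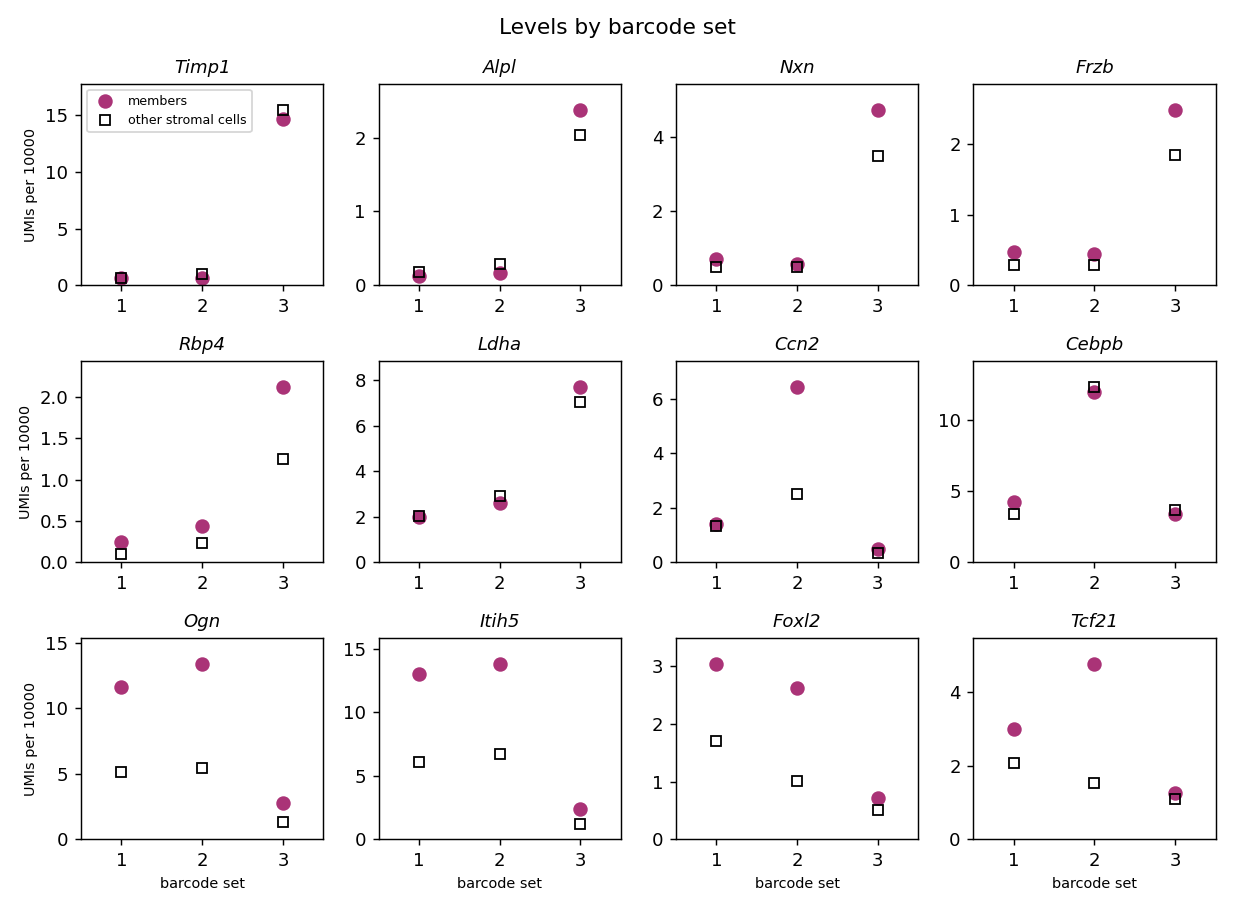
Levels (vertical axes, UMIs per 10000) of 12 genes in barcode sets 1, 2 and 3 (horizontal axes) in members (filled circles) and in other stromal cells (open squares), 1 value per set. *Timp1* to *Ldha* are highest in set 3, *Ccn2* and *Cebpb* in set 2, and *Ogn*, *Itih5* and *Foxl2* are lowest in set 3, with *Tcf21* of members highest in set 2.

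The sets were also compared within the marker patterns, since set 3 held few cells with *Frem1*. The genes counted below were called on all members, of which the patterns and the fullest clusters are parts. Agreement is thus partly built in and is no separate test. Among members with all 3 markers *Timp1* was at 0.621, 0.401 and 10.9, *Ogn* at 12.7, 15.2 and 4.09, *Foxl2* at 3.44, 2.93 and 0.724 and *Ccn2* at 1.10, 5.71 and 1.00 in sets 1, 2 and 3. All 12 genes named as higher in set 3 than in set 2 were at least 2-fold higher in each of the 4 patterns, and 11 of the 12 lower ones were lower in each. *Frem1* is 1 of the 12 lower genes and also defines the patterns. It is at 0 by definition in cells with *Wnt4* and *Col12a1* alone, and was at 2.49 and 1.39 in sets 2 and 3 with all 3 markers. Of all 316 higher genes between 72.2 and 82.3% passed within a pattern, and of the 193 lower ones between 71.0 and 81.3%. For set 3 over set 1 the 12 higher genes passed in each pattern, while of the 12 lower ones 8 passed among cells with *Frem1* and *Col12a1* and 11 in each of the other patterns, and of the 186 genes lower there between 65.6 and 83.3% passed. For set 2 over set 1 fewer of the lower genes passed, with 6 of the 12 named ones past 2-fold in 2 of the patterns and 10 in the other two, and between 50 and 81.6% of all 38, while of the 12 higher ones between 10 and 12 passed. In the fullest clusters 297 of the 316 (94.0%) and 170 of the 193 (88.1%) passed for set 3 over set 2, and 227 of the 241 (94.2%) and 155 of the 186 (83.3%) for set 3 over set 1.

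*Tagln* and *Acta2* differed between the members of the fullest clusters of the 3 sets, and most of the level of the smooth muscle list came from them. *Tagln*, transgelin, was at 4.33, 8.04 and 16.6 in all members, 3.83-fold higher in set 3 than in set 1 (3.64 to 4.02), and at 3.87, 5.06 and 7.60 in other stromal cells. In the fullest clusters it was at 1.57, 6.74 and 31.5. *Acta2*, smooth muscle actin, was at 10.2, 9.58 and 11.1 in all members and at 2.43, 5.82 and 14.1 in the fullest clusters. The 8 smooth muscle markers summed to 7.30, 15.8 and 47.8 there and to 28.2, 32.8 and 20.7 in the remaining members. *Tagln* and *Acta2* make up most of that sum in set 3. *Mylk*, myosin light chain kinase, was at 3.20, 3.03 and 1.73 in the fullest clusters, lowest in set 3. The other 5 markers were low in every set but highest in set 3. *Actg2*, enteric smooth muscle actin, was at 0.0106, 0.0223 and 0.161, *Cnn1*, calponin, at 0.00528, 0.00745 and 0.0908, *Lmod1*, leiomodin, at 0.00528, 0.0261 and 0.0594, *Myh11*, smooth muscle myosin, at 0.0370, 0.0707 and 0.0943 and *Des*, desmin, at 0.0317, 0.0298 and 0.0489. In the *Mfap5* and *Clec3b* fibroblasts the 8 smooth muscle markers summed to 20.2, 32.3 and 56.2, so the rise to set 3 was not particular to members. The 7 pericyte markers summed to 0.296, 0.551 and 0.761 in the fullest clusters. The part of smooth muscle cells in these levels was not tested.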

How the data were processed

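The authors deposited 1 table of natural log values, where 1 was added to each gene's UMIs scaled to 10000 per cell. The submitters' processing notes name Cell Ranger, Seurat and mm10, with no versions. UMIs were worked back, all whole within 0.01 and with a largest deviation of 1.32e-11. The table was read as 1 sample of 3 barcode sets, since no label ties an ending to a library.

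Ratios compare levels from summed UMIs. Genes needed a mean level of 0.2 against other stromal cells and 0.5 between sets or against the 2 other kinds of stromal cell, and a ratio of 2 or 0.5. A gene near 0 in 1 group could reach the mean level only through the other, and its call then follows from the filter. A group at 0 was put at 3 counts. Ratio intervals are exact conditional intervals and shares have Clopper-Pearson intervals. With 1 library per time point no p-value is given. Named genes were the 15 with the largest and smallest ratio to other stromal cells, the 12 each way between sets at a mean level of at least 1, genes of the rule, and from 27 gene lists those past the fold and up to 6 of highest level. Gm and Rik genes, ribosomal and mitochondrial genes were counted but not named. Other genes named, such as leading genes of clusters, genes in the comparisons with the 2 other kinds of stromal cell and list genes short of the fold, were chosen after their values were seen. Some genes that the rule would name are not reported here. Members, lists and marker genes were chosen with earlier results of these data known. Clusters used 2000 variable genes, 30 principal components, 15 neighbours and Louvain clustering at resolution 1. No doublet caller was run, and doublets were not removed. An alternative left out the 8% deepest cells. The comparisons were tested on simulated data. Tools were python 3.11.15, scikit-learn 1.9.0, matplotlib 3.10.9, scipy 1.17.1, python-igraph 0.11.9 and numpy 2.4.6, and gene positions came from GENCODE.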

Additional observations from a re-analysis of the deposited data

Results flagged for a closer look

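For 5 genes the ratio between sets passed 2-fold in members while that in other stromal cells lay on the other side of 1. With 1 library per time point the differences were not tested. *Igfbp5* was 0.333 of set 1 in set 2 in members (0.693 against 2.08) and 1.53-fold in other stromal cells, and its set 3 over set 2 ratio was 2.96 in members and 0.839 in the others. In members of the fullest clusters these ratios were 0.529 and 2.96. *Col15a1*, a basement membrane collagen, was 0.326 of set 1 in set 2 in members (0.300 against 0.917) and 1.03-fold in the others, and in the fullest clusters it was at 0.0223 against 0.0528. *Sfrp4* was 0.472 of set 2 in set 3 in members (0.650 against 1.38) and 1.74-fold in the others, and 0.481 of set 1 in set 3 against 1.19-fold. In the fullest clusters *Sfrp4* was low, at 0.0950, 0.149 and 0.238 in sets 1, 2 and 3, and its ratios turned to 1.60 for set 3 over set 2 and 2.50 for set 3 over set 1, the direction of the other stromal cells. *Mxra8*, a matrix-associated membrane protein, was 0.497 of set 2 in set 3 in members and 1.01-fold in the others, and 0.380 in the fullest clusters. *Cenpm*, a centromere protein, was 2.27-fold higher in set 3 than in set 2 in members (0.988 against 0.436), 0.885 in the others and 5.59 in the fullest clusters.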

How the results depend on the processing

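No paired analysis was possible because each time point has 1 library and the barcode sets carry no replicate. The member share of 7.03% was 1.42% with all 3 markers required, 2.47% with *Mfap5*, *Clec3b*, *Inha* and *Cyp17a1* at 0 and 3.38% on thinned cells. The share of members in the 2 fullest clusters of each set, 77.5%, was 88.3% at resolution 0.5. There the fullest cluster of set 3 held 491 members (47.95%) and 66.48% of the other stromal cells. The next one held 434 members (42.38%) and 10.9% of the other stromal cells. All values given for the fullest clusters use resolution 1. Against other stromal cells the 22 higher and 9 lower genes became 46 and 24 with all 3 markers, 94 and 83 without the filter on low levels, 46 and 24 against cells with none of the markers, 51 and 31 without set 3, and 63 and 92 in the fullest clusters. The lower count was 22 on thinned cells, 20 without the deepest cells, 17 with means over cells and 14 without set 2. Between sets 1 and 2 the 32 higher genes became 57 with totals that leave out the most abundant genes and 903 without the filter. The 38 lower ones became 25 without the deepest cells, 22 with means over cells, 21 in the fullest clusters and 1476 without the filter. Between sets 2 and 3 the counts without the filter were 1628 and 3089, and totals without abundant genes gave 317 lower genes. Between sets 1 and 3 the 241 higher genes became 372 with the 4 excluded genes at 0, 405 on thinned cells, 433 in the fullest clusters and 1074 without the filter, and the 186 lower ones 296 on thinned cells, 303 with totals without abundant genes, 297 in the fullest clusters and 3827 without the filter. In the fullest clusters the 8 higher and 11 lower genes against the *Mfap5* and *Clec3b* fibroblasts became 8 and 15, and the 24 and 25 against the *Lamc3* and *Adcy7* cells became 61 and 62. The causes were not tested, except that no filter means more genes compared. The other 59 values stayed within 1.5 times the count reported or within the interval of the share. Depth limits the shares of cells with a UMI, and the marker rule, to genes that a cell of median depth can show.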
